A study of Mus musculus with 6 samples.

Results

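Wnt genes encode secreted signalling proteins, and 10 of them were followed in whole kidneys of newborn mice with and without an active form of Notch2. The members are Wnt2b, Wnt4, Wnt5a, Wnt5b, Wnt6, Wnt7a, Wnt7b, Wnt9b, Wnt10a and Wnt11, found in the deposited expression table by their gene symbols. They make up 10 of its 23669 gene rows and 10 of the 19 Wnt ligands of the mouse. Each of the 10 had a row.

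The study sequenced RNA from whole kidneys at postnatal day 3, and its title names Notch2 signalling and kidney cysts. One group held 3 samples with the genotype R26NICD2/+ Kspcre, written NICD2 from here on, and the other held 3 wild type samples. The NICD2 allele carries the intracellular domain of Notch2, the fragment that an activated Notch receptor sends to the nucleus, at the Rosa26 locus, and it was combined with Kspcre, in which the Ksp-cadherin (Cdh16) promoter drives Cre. That promoter is active in tubule epithelium, so the stroma, the vessels and the nephron progenitors of the same organ are not its known targets. The labels call the controls wild type and give no Cre or allele for them. Nor do they give the number of animals behind each group, so the p-values rest on the spread among samples whose differences may be partly technical.

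A Wnt protein is given a lipid by Porcupine (Porcn), carried to the cell surface by Wntless (Wls) and read by Frizzled receptors on nearby cells. With the co-receptors Lrp5 and Lrp6 it stabilises beta-catenin, which switches on genes such as Axin2, and through Ror2, Ryk and the planar polarity proteins it can steer cell shape and the orientation of divisions instead. In the developing kidney Wnt9b from the ureteric epithelium starts nephron formation in the neighbouring mesenchyme, Wnt4 carries the induced cells through to a tubule, Wnt11 is made at the branching ureteric tips, Wnt7b of the collecting duct trunk is needed for the medulla, and Wnt5a comes mainly from mesenchyme.

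The stretch of each ligand around the serine that carries the lipid shows what the members share and how similar their transcripts can be. The lines give 27 coding bases per member, 5′ to 3′, from GENCODE M21 transcripts (GRCm38), with the codon of that serine in capitals.
Wnt7b: aagtgtcacggtgtgTCAggctcctgt
Wnt9b: aagtgccatggtgtgTCAggctcctgt
Wnt7a: aagtgccatggtgtgTCAggctcctgt
Wnt11: aaatgccatggggtgTCTggctcctgc
Wnt4: aagtgtcacggggtgTCGggctcctgc
Wnt2b: aagtgtcacggtgtgAGTggctcctgt
Wnt5a: aagtgtcatggagtgTCTggctcctgt
Wnt5b: aaatgtcacggagtcTCCgggtcctgc
Wnt6: aagtgccatgggcttTCGggttcctgc
Wnt10a: aaatgccacggcaccTCAggcagctgc
Wnt7a and Wnt9b matched in 27 of 27 bases, and Wnt7b differed from each of them in 2 places, with 25 identical bases. The least similar pair was Wnt2b and Wnt10a, with 15 identical bases. Over whole transcripts the longest exact run shared by any pair of members was 29 bases, between Wnt5a and Wnt5b. The authors' treatment of reads that match more than 1 gene is not described in the labels or the headers.

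The libraries were checked against their labels first. A row labelled as human NOTCH2, read here as the transgene (the allele's species is not in the labels), held 75.44, 79.59 and 60.17 FPKM in NICD2, against 0, 0.03 and 0.03 FPKM in wild type. FPKM are fragments scaled to transcript length and to the mapped total of a library, which puts genes of different length on 1 scale. The Notch target Nrarp was higher in NICD2 (adjusted p = 6.41e-06, limma). The Y-linked genes Uty, Kdm5d, Eif2s3y and Ddx3y were expressed in 5 libraries and were at 0 FPKM in NICD2 replicate 3. The NICD2 samples thus did not all come from 1 animal, and sex was mixed in NICD2 only. The part of sex in the ligand values was not tested. NICD2 replicate 1 and wild type replicate 3 had almost no adrenal transcripts, with 0 and 0.29 FPKM of the steroid 21-hydroxylase gene Cyp21a1, against 33.2 to 35.91 FPKM in the other 4 libraries. Depth was estimated at 16300000 to 17350000 fragments, with 13568 to 13784 genes per library at 1 FPKM or more.

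Of the 10 ligands, 6 reached 1 FPKM in at least 3 libraries and were tested with limma on log2(FPKM + 1), among 13765 genes. Wnt7b and Wnt9b rose in NICD2 kidneys, none fell, and Wnt4, Wnt5a, Wnt5b and Wnt11 did not pass the threshold of a Benjamini-Hochberg adjusted p of 0.05. Over all genes tested, 8.79% passed it, 4.93% higher and 3.86% lower. At an unadjusted p under 0.05, 3 of the 6 ligands differed, with Wnt11 the third and all of them higher, as did 25.1% of all genes tested in either direction. The median log2 fold change was 0.38 over the 6 ligands and -0.01 over all genes tested. Wnt2b, Wnt6, Wnt7a and Wnt10a were too low for the test and are described by their values.

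**Figure D1:**
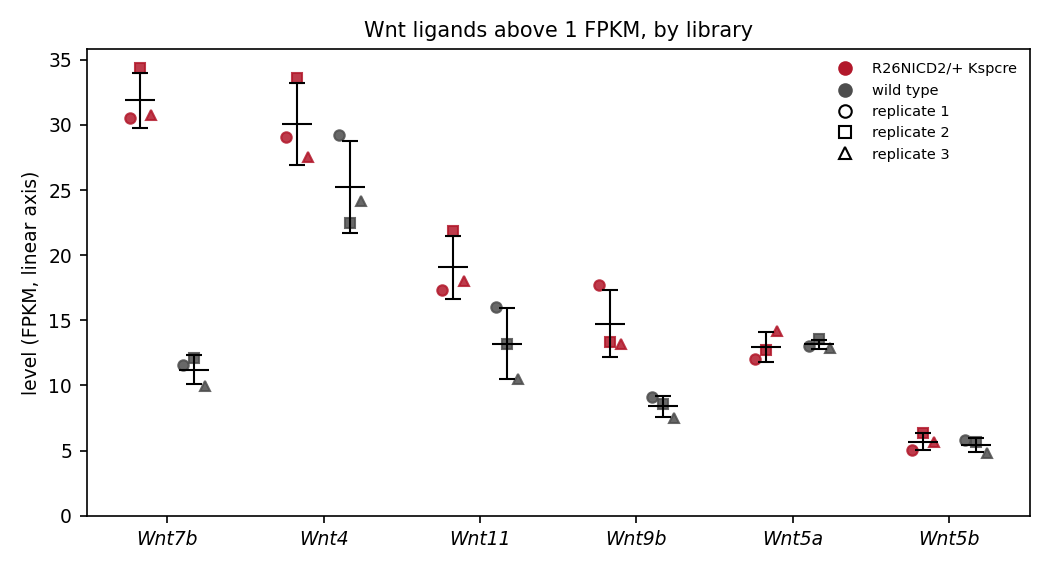
FPKM of the 6 ligands that passed the filter on low values, with a point per library, NICD2 left of wild type, and bars for the mean and SD (n = 3 per group). The groups stand apart for Wnt7b, Wnt9b and Wnt11 and overlap for Wnt4, Wnt5a and Wnt5b.

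Wnt7b, the collecting duct ligand needed for the renal medulla (gene ID 22422, minus strand, chr15:85535437-85581821), held 30.52, 34.33 and 30.79 FPKM in NICD2 kidneys, against 11.55, 12.08 and 9.97 FPKM in wild type kidneys. Every NICD2 library lay far above every wild type library, and the libraries within a group were close, with a coefficient of variation of 6.67% in NICD2 and 9.80% in wild type. The mean was 31.9 ± 2.13 FPKM in NICD2 and 11.2 ± 1.10 FPKM in wild type (SD, n = 3 each), a ratio of 2.85. On the log2(FPKM + 1) scale, which understates changes of low genes, the rise was 1.43 ± 0.085 (SE, 95% interval 1.24 to 1.63, limma, adjusted p = 3.63e-05). Wnt7b was 29th by p and 70th by fold change among the 13765 genes.

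Wnt9b, the ureteric ligand that starts nephron formation (gene ID 22412, minus strand, chr11:103727363-103749821), held 17.69, 13.33 and 13.19 FPKM in NICD2, against 9.09, 8.56 and 7.53 FPKM in wild type. The groups did not overlap, and NICD2 replicate 1 stood above the other two. The mean was 14.7 ± 2.56 FPKM in NICD2 and 8.39 ± 0.793 FPKM in wild type, a ratio of 1.76. The log2 fold change was 0.74 ± 0.118 (95% interval 0.47 to 1.01, limma, adjusted p = 0.00675). Without NICD2 replicate 1 and wild type replicate 3, the libraries low in adrenal transcripts, it was 0.54 (adjusted p = 0.0208).

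Wnt11, a ligand of the ureteric tips (gene ID 22411, plus strand, chr7:98834916-98854747), held 17.34, 21.85 and 17.98 FPKM in NICD2, against 15.99, 13.15 and 10.5 FPKM in wild type. It was listed here both as a marker of the tips and as a marker of medullary and papillary stroma. Which of these cells held the transcripts was not tested. The groups did not overlap, but the lowest NICD2 library and the highest wild type library were close. The coefficient of variation in wild type was 20.8%. Groups did not overlap for 3 of the 6 ligands, all higher in NICD2. Across all genes tested this was so for 30.5%, with 15.0% higher and 15.5% lower. Wnt11 averaged 19.1 ± 2.44 FPKM in NICD2 and 13.2 ± 2.75 FPKM in wild type, and its log2 fold change of 0.51 ± 0.142 (95% interval 0.18 to 0.83) did not pass the threshold (limma, adjusted p = 0.063). Leaving out wild type replicate 1, the highest of its group, gave 0.65 (adjusted p = 0.026). Removing the highest control must raise the difference, so this fit is no support for a call. Leaving out any other single library left Wnt11 uncalled (limma, adjusted p 0.0882 to 0.165). In the authors' deposited table the DEGseq comparison gives Wnt11 a log2 fold change of 0.52 with a q-value of 2.02e-27, so the limma fit and that table differ in the call. The q-value and the limma p come from different tests and are not on 1 scale.

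Wnt4, which takes induced mesenchyme through to an epithelial vesicle (gene ID 22417, plus strand, chr4:137277635-137299501), held 29.08, 33.57 and 27.55 FPKM in NICD2, against 29.2, 22.43 and 24.12 FPKM in wild type. The groups overlapped, since wild type replicate 1 lay above 2 of the NICD2 libraries. The mean was 30.1 ± 3.13 FPKM in NICD2 and 25.3 ± 3.52 FPKM in wild type. The log2 fold change of 0.25 ± 0.108 did not pass the test (limma, adjusted p = 0.2). The authors' deposited table gives a DEGseq q-value of 3.06e-18 for Wnt4, although the groups overlapped, and this value is not on the scale of the limma p.

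Wnt5a, a mesenchymal ligand known for signalling through Ror2 and planar polarity (gene ID 22418, plus strand, chr14:28505473-28527448), held 11.99, 12.68 and 14.2 FPKM in NICD2, against 13.06, 13.56 and 12.89 FPKM in wild type. Its paralogue Wnt5b (gene ID 22419, minus strand, chr6:119432531-119544824) held 5.02, 6.33 and 5.68 FPKM in NICD2, against 5.81, 5.66 and 4.82 FPKM in wild type. The groups overlapped for both. The 95% interval of the log2 fold change ran from -0.20 to 0.15 for Wnt5a and from -0.18 to 0.28 for Wnt5b (limma, adjusted p = 0.88 for Wnt5a and 0.791 for Wnt5b). The gene Fbxl14 lies within the span of Wnt5b on the other strand, and without a stated use of strand their reads cannot be told apart where they overlap. Fbxl14 averaged 9.13 FPKM in NICD2 and 8.29 FPKM in wild type (adjusted p = 0.304). Within a library Wnt5a was 2.0 to 2.5 times as high as Wnt5b in NICD2 and 2.25 to 2.67 times as high in wild type.

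The other 4 ligands stayed near or below 1 FPKM. Wnt10a, known from teeth and skin appendages (gene ID 22409, plus strand, chr1:74792019-74804176), held 0.22, 0.20 and 0.19 FPKM in NICD2, against 0.81, 0.71 and 0.64 FPKM in wild type. Every NICD2 library lay below every wild type library, and both groups were tight. The mean was 0.203 ± 0.0153 FPKM in NICD2 and 0.72 ± 0.0854 FPKM in wild type, a ratio of 0.282.

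At this depth the Wnt10a levels came from an estimated 6.0 to 7.0 fragments per NICD2 library and 20.3 to 24.2 per wild type library, so counting error is a large part of each value. With so few fragments, the close values within each group, and the SE of the fit below, may understate the error. An exact permutation test, two-sided, gave p = 0.1 for Wnt10a, the smallest that 3 against 3 samples allow. With no filter on low values, limma gave a log2 fold change of -0.51 ± 0.054 (adjusted p = 0.00443). In that fit 4.55% of 19658 genes were called, 1.92% lower. The groups did not overlap for 24.8% of these genes, and 12.9% had all NICD2 libraries below all wild type libraries. With a pseudocount of 0.1 in place of 1 the log2 difference was -1.43. The authors' deposited table gives -1.81 as its log2 fold change, with a DEGseq q-value of 3.48e-07 that is not on the scale of the limma p.

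Wnt2b, known from the mesenchyme surrounding the early kidney (gene ID 22414, minus strand, chr3:104944805-104961709), held 0.57, 0.79 and 1.03 FPKM in NICD2, against 0.51, 0.92 and 0.72 FPKM in wild type. Wnt6, made by the ureteric bud of the embryo (gene ID 22420, plus strand, chr1:74754342-74785322) held 0.31, 0.65 and 0.70 FPKM in NICD2, against 0.84, 0.71 and 0.33 FPKM in wild type. The groups overlapped for both, and the coefficient of variation of Wnt6 was 38.4% in NICD2 and 42.3% in wild type. Wnt7a, known for patterning the limb and the female tract (gene ID 22421, minus strand, chr6:91363983-91411369), held 0, 0.06 and 0.02 FPKM in NICD2, against 0.02, 0 and 0 FPKM in wild type. That is at most an estimated 3.1 fragments in any library, so a difference in Wnt7a was not detectable at this depth, although it shares with Wnt9b the stretch printed above.

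**Figure D2:**
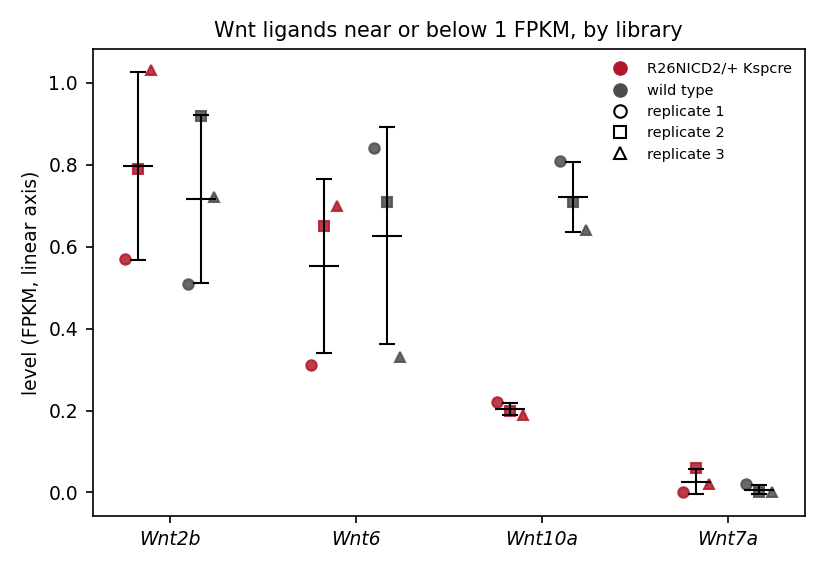
FPKM of the 4 ligands below the filter, with a point per library, NICD2 left of wild type, and bars for the mean and SD (n = 3 per group). The groups stand apart only for Wnt10a, which is lower in NICD2.

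The order of the ligands by level differed between the groups. In NICD2, Wnt7b at 31.9 FPKM and Wnt4 at 30.1 FPKM were at the top with overlapping ranges, and Wnt11, Wnt9b and Wnt5a followed, each overlapping the next. In wild type, Wnt4 at 25.3 FPKM stood alone at the top, Wnt11 and Wnt5a overlapped at 13.2 FPKM each, and Wnt7b was 4th, above Wnt9b without overlap. Wnt5b was 6th in both groups. In NICD2, Wnt2b and Wnt6 overlapped and lay above Wnt10a, whereas in wild type Wnt10a, Wnt2b and Wnt6 overlapped. Wnt7a was lowest in both.

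The summed level of the 10 ligands was 112.74, 123.79 and 111.33 FPKM in NICD2, against 86.88, 77.78 and 71.52 FPKM in wild type. Wnt7b accounted for 20.7 FPKM of the 37.2 FPKM by which the group means of this sum differed, Wnt9b for 6.34 FPKM, Wnt11 for 5.84 FPKM and Wnt4 for 4.82 FPKM. Wnt7b made up 27.5 ± 0.363% of the sum in NICD2 and 14.3 ± 1.15% in wild type. Wnt4 made up 25.9 ± 1.19% in NICD2 and 32.1 ± 2.79% in wild type, and Wnt5a 11.2 ± 1.35% in NICD2 and 16.8 ± 1.58% in wild type. The share of Wnt5a was lower in every NICD2 library than in any wild type library, while its level in FPKM overlapped. Within a library Wnt7b was 1.02 to 1.12 times Wnt4 in NICD2 and 0.396 to 0.539 times Wnt4 in wild type. It was 1.73 to 2.58 times Wnt9b in NICD2 and 1.27 to 1.41 times Wnt9b in wild type.

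**Figure D3:**
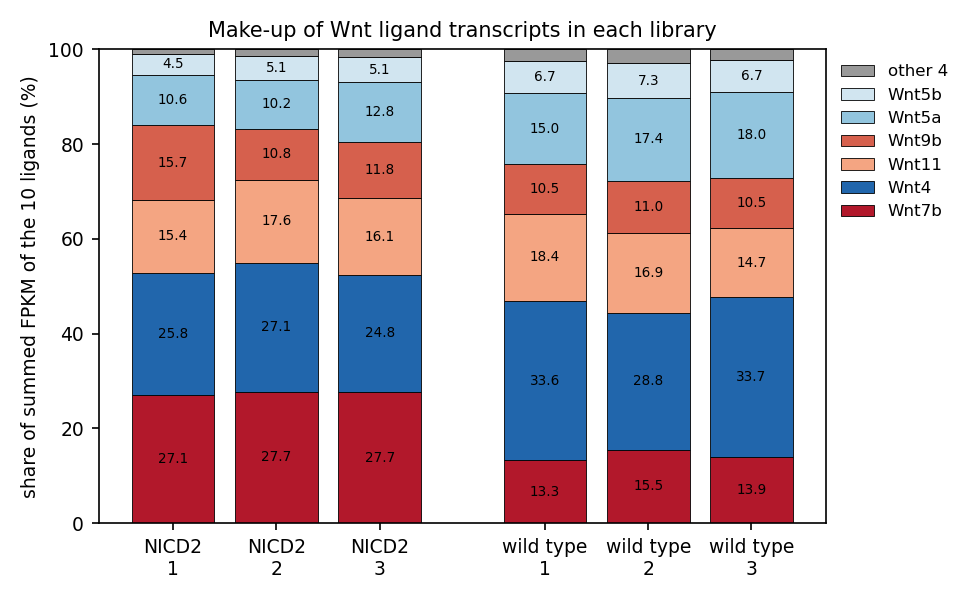
Share of each ligand in the summed FPKM of the 10 ligands, in percent, with a bar per library and NICD2 left of wild type. Wnt7b takes 27.07% to 27.73% of the sum in NICD2 and 13.29% to 15.53% in wild type.

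In whole kidneys, fewer cells of a type and less RNA per cell cannot be told apart, so the ligands were set beside markers of the cells that make them. Wnt7b was compared within each library with Epcam and Cdh16, genes of tubule epithelium that did not pass the test (log2 fold change 0.22 with adjusted p = 0.118 for Epcam and -0.21 with adjusted p = 0.164 for Cdh16, limma). The groups did not overlap for either gene, with Epcam higher and Cdh16 lower in NICD2. Wnt7b was 0.213, 0.286 and 0.240 times Epcam in NICD2, against 0.105, 0.112 and 0.0851 times in wild type. Wnt9b was 0.124, 0.111 and 0.103 times Epcam in NICD2, against 0.0828, 0.0791 and 0.0643 times in wild type. Wnt7b was 0.123, 0.161 and 0.124 times Cdh16 in NICD2, against 0.0450, 0.0408 and 0.0371 times in wild type. Wnt9b was 0.0713, 0.0624 and 0.0533 times Cdh16 in NICD2, against 0.0354, 0.0289 and 0.0280 times in wild type. All 4 ratios were higher in every NICD2 library than in any wild type library. The epithelial cadherin Cdh1, another gene of these tubules, held 105.75, 88.10 and 91.09 FPKM in NICD2, against 51.83, 64.83 and 61.68 FPKM in wild type (log2 fold change 0.67 ± 0.101, limma, adjusted p = 0.00497). Cdh1 moved with Wnt7b and Wnt9b, and its change lay within the 95% interval of Wnt9b (0.47 to 1.01, limma). No ratio to Cdh1 was taken, so the ratios above cover only 2 of the 3 tubule genes listed. They do not show that Wnt9b rose beyond Cdh1. The part of Cdh1 in the values of Wnt7b and Wnt9b was not tested.

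Aqp2, the water channel of principal cells in the collecting duct, fell. It averaged 43.1 ± 7.46 FPKM in NICD2 and 135 ± 4.18 FPKM in wild type (log2 fold change -1.64 ± 0.109, limma, adjusted p = 5.81e-05). Within a library Wnt7b was 0.592 to 0.918 times Aqp2 in NICD2 and 0.0763 to 0.0888 times Aqp2 in wild type. Of the 10 collecting duct markers besides Wnt7b, 5 fell (Aqp2, Aqp3, Aqp4, Hsd11b2 and Fxyd4) and 3 rose (Scnn1g, Gata2 and Elf5), and their summed level was 243 to 295 FPKM in NICD2 and 413 to 440 FPKM in wild type. Of 8 intercalated cell markers 7 fell, with a sum of 42.5 to 50.4 FPKM in NICD2 and 160.5 to 165 FPKM in wild type. The called share was 80.0% of these 10 collecting duct markers and 87.5% of the intercalated cell markers, beside 8.79% of all genes tested.

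The list of ureteric tip markers also held Wnt9b and Wnt11. Whether tip cells held the Wnt9b transcripts was not tested. Among the other markers reported from that list, Ros1 rose, Gfra1 fell, and Etv4, Etv5 and Sox9 did not pass the test. Ros1, a receptor tyrosine kinase, held 5.20, 3.66 and 4.01 FPKM in NICD2, against 1.52, 1.80 and 1.91 FPKM in wild type (log2 fold change 0.94 ± 0.125, limma, adjusted p = 0.00265). Gfra1, the GDNF co-receptor, averaged 9.68 ± 1.34 FPKM in NICD2 and 16.6 ± 1.21 FPKM in wild type (log2 fold change -0.72, limma, adjusted p = 0.00361). The GDNF receptor Ret, a defining marker of the tip, held 0.43 to 0.48 FPKM in NICD2 and 0.49 to 0.71 FPKM in wild type. The part of these marker changes in the values of Wnt7b, Wnt9b and Wnt11 was not tested.

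Lists for the cells around the ureteric tree were read in the same way. Of the 7 markers of the pretubular aggregate and renal vesicle besides Wnt4, 2 rose (Jag1 and Ccnd1) and Dll1 fell, with a sum of 367 to 393 FPKM in NICD2 and 239 to 253.5 FPKM in wild type. Ccnd1 alone averaged 221 FPKM of this in NICD2 and 95.01 FPKM in wild type. The called share of these 7 markers was 42.9%, beside 8.79% of all genes tested. Of 7 tested nephron progenitor markers 2 fell (Sall1 and Pax2), which is 28.6% beside 8.79% of all genes tested. The nephron progenitor list summed to 70.4 to 78.0 FPKM in NICD2 and 93.4 to 103 FPKM in wild type. The defining progenitor marker Six2 missed the filter, with 0.46 to 0.70 FPKM in NICD2 and 0.99 to 1.51 FPKM in wild type. Of 9 tested stroma markers, Foxd1 fell, which is 11.1% beside 8.79% of all genes tested, and 7 of 14 alternatives removed its call. For the stroma list the sums overlapped at 831 to 942 FPKM in NICD2 and 864 to 999 FPKM in wild type. None of the 4 markers of medullary and papillary stroma that are not themselves Wnt ligands passed the test. Markers of the urothelium, whose precursor in the ureter makes Wnt7b and Wnt9b, summed to 40.0 to 69.7 FPKM in NICD2 and 48.9 to 102 FPKM in wild type. Of the 7 tested, 1 rose and 3 fell, which is 57.1% called beside 8.79% of all genes tested. Their median log2 fold change was -0.92. Upk1a averaged 37.7 FPKM in NICD2 and 14.4 FPKM in wild type. Psca averaged 0.187 FPKM in NICD2 and 18.95 FPKM in wild type, Upk1b 0.433 and 10.87 FPKM, and Upk3a 3.15 and 10.18 FPKM. Of the markers farther from these ligands, 5 of 6 for podocytes, 3 of 6 for proximal tubule and 2 of 5 for endothelium fell, and of 5 for the loop of Henle 3 fell and 1 rose. None of the 3 immune, 5 adrenal and 3 erythroid markers tested was called in limma. The part of all these lists in the ligand values was not tested.

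The genes most like the called ligands were taken as those with the highest Pearson r of log2(FPKM + 1) over the 6 libraries, among tested genes with a mean of at least 5 FPKM. These r describe 6 libraries that fall into 2 groups. For Wnt7b they were Hey2 (r = 0.9975), Notch3 (r = 0.9957) and Ctf1 (r = 0.9952). Hey2, a transcriptional repressor, averaged 9.04 FPKM in NICD2 and 3.96 FPKM in wild type. For Wnt9b they were Ptgs1 (r = 0.997), Il17re (r = 0.9969) and Gata2 (r = 0.9958), which like Wnt9b were highest in NICD2 replicate 1. Ptgs1, a cyclooxygenase, averaged 19.0 FPKM in NICD2 and 14.1 FPKM in wild type.

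The chromosomal neighbours of the changed ligands were read from the same table. On its coordinates Wnt9b lies 24353 bases from Wnt3, which averaged 0.0167 FPKM in NICD2 and 0 FPKM in wild type. On its other side Gosr2, a Golgi transport gene 29624 bases away, averaged 43.3 FPKM in NICD2 and 36.3 FPKM in wild type (log2 fold change 0.25, limma, adjusted p = 0.0322), and 9 of 14 alternative settings removed that call. Near Wnt7b, the closest tested gene row with a symbol was Atxn10, 71600 bases away, with a log2 fold change of 0.04 (adjusted p = 0.678). A row without a symbol, 313 bases upstream of Wnt7b on the other strand, averaged 1.48 FPKM in NICD2 and 1.06 FPKM in wild type (adjusted p = 0.14). Wnt6 and Wnt10a lie 6696 bases apart on the same strand of chromosome 1. Their values differed in pattern, since Wnt10a had separate groups and Wnt6 did not.

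Promoters of 7 of the 10 members, 10 promoters in all, were found in the RefSeq table for GRCm38.p6, which covers 250 bases before to 50 after a start. Wnt5a, Wnt7b and Wnt10a were not matched. The 250 bases before the start are shown for the called ligand with a match, Wnt9b (chr11:103749822-103750071, minus strand), and for Wnt11 (chr7:98834862-98835111, plus strand), 5′ to 3′.
Wnt9b: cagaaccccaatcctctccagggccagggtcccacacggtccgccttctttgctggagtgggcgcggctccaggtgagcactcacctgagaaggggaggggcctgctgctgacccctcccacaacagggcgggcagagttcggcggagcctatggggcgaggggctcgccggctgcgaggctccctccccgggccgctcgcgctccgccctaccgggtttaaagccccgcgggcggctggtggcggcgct
Wnt11: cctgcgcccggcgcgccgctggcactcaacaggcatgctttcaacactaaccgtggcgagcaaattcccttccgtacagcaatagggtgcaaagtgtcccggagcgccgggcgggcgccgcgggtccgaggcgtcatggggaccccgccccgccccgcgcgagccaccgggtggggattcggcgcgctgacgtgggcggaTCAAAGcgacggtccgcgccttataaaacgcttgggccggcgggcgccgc
The letters TGGGAA, the core bound by RBPJ, the DNA-binding partner of Notch, were searched on both strands, as were CTTTGA, the core bound by the TCF/LEF partners of beta-catenin. TGGGAA was in 1 of the 10 promoters, at a start of Wnt5b, and in 25.6% of the 32851 promoters of the table. CTTTGA was in 2 of the 10, at a start of Wnt5b and at this start of Wnt11 (capitals, on the reverse strand, at -50), and in 16% of all. Neither set of letters was in the Wnt9b window.

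The remaining Wnt ligands gave little signal. Of these 9, only Wnt16 and Wnt9a passed the filter on low values, and neither passed the test. Wnt16 held 2.2, 1.89 and 1.38 FPKM in NICD2, against 1.15, 1.55 and 1.55 FPKM in wild type (log2 fold change 0.22, limma, adjusted p = 0.374). Wnt3a and Wnt8a had no FPKM in any library.

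Genes that make, read or answer Wnt signals were described by lists of their roles. The lists hold 78 genes besides the 10 ligands, of which 60 were tested, 8 rose and 7 fell. That is 25.0%, against 8.79% of all genes tested, and their median log2 fold change was 0.01. These lists, like the marker lists above, were chosen with earlier results of these data known. Their called shares are therefore descriptions and not tests of enrichment. Leaving out a single library gave 6 to 8 pathway genes higher and 4 to 7 lower. Without both libraries low in adrenal transcripts, 7 were higher and 2 lower.

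Of the 8 genes for secretion and processing, 1 fell, which is 12.5% beside 8.79% of all genes tested. Trabd2b, a protease that inactivates Wnt proteins, averaged 10.5 ± 0.856 FPKM in NICD2 and 15.2 ± 0.339 FPKM in wild type (log2 fold change -0.50, limma, adjusted p = 0.00441). The carrier Wls was the highest of the secretion genes after the proteoglycan Gpc3, with 92.8 ± 0.598 FPKM in NICD2 and 84.99 ± 4.40 FPKM in wild type, and did not pass the test (adjusted p = 0.235). Porcn, the enzyme that adds the lipid, was at 5.85 ± 0.912 FPKM in NICD2 and 7.21 ± 0.626 FPKM in wild type (adjusted p = 0.181).

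Of 15 tested Frizzled receptors and co-receptors, Fzd6 rose and none fell, which is 6.67% called beside 8.79% of all genes tested. Fzd6, a receptor known for planar polarity, averaged 14.8 ± 0.333 FPKM in NICD2 and 11.2 ± 0.579 FPKM in wild type (log2 fold change 0.37, limma, adjusted p = 0.00989). The median of the receptors was 0.02 on the log2 scale.

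R-spondins and their partners, which amplify Wnt signals by protecting Frizzled receptors from the ligases Rnf43 and Znrf3, went down where they passed the test. Of 6 tested, 3 fell and none rose. Their median log2 fold change was -0.28. The summed level of the list overlapped, at 77.8 to 86.1 FPKM in NICD2 and 76.8 to 90.3 FPKM in wild type. Lgr4, the highest gene of the list, averaged 62.35 FPKM in NICD2 and 57.38 FPKM in wild type. It did not pass the test (log2 fold change 0.12, limma, adjusted p = 0.449). The ligand Rspo1 held 5.64, 4.45 and 5.43 FPKM in NICD2, against 8.89, 7.48 and 8.21 FPKM in wild type (log2 fold change -0.58 ± 0.1, limma, adjusted p = 0.00936). Rspo3 held 1.14, 1.61 and 2.89 FPKM in NICD2, against 3.83, 3.47 and 3.94 FPKM in wild type (adjusted p = 0.0463). The groups stood apart for both, and Rspo3 varied widely within NICD2. The receptor Lgr5 averaged 2.51 ± 0.0693 FPKM in NICD2 and 3.62 ± 0.325 FPKM in wild type (adjusted p = 0.0307). Rspo3 and Lgr5 each lost the call in 9 of 14 alternative settings, with adjusted p up to 0.192 for Rspo3 and 0.189 for Lgr5.

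Of 8 tested secreted antagonists, 2 fell and none rose, which is 25.0% called beside 8.79% of all genes tested. Sfrp2, which binds Wnt proteins outside the cell, averaged 37.6 ± 1.61 FPKM in NICD2 and 47.6 ± 2.44 FPKM in wild type (limma, adjusted p = 0.016). Sostdc1, which binds Lrp6 and BMP ligands, averaged 65.0 ± 8.26 FPKM in NICD2 and 92.3 ± 5.79 FPKM in wild type (log2 fold change -0.50, adjusted p = 0.0154). The call of Sfrp2 was lost in 4 of 14 alternatives and that of Sostdc1 in 2.

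Of the 12 genes known to respond to beta-catenin, 5 rose, Lgr5 fell and 6 did not pass the test. The median was 0.18 on the log2 scale. Axin2, a feedback inhibitor often used as a readout of the pathway, held 8.91, 11.3 and 10.85 FPKM in NICD2, against 6.04, 5.93 and 6.27 FPKM in wild type (log2 fold change 0.68 ± 0.093, limma, adjusted p = 0.00306). Every NICD2 library lay above every wild type library for Axin2. Cyclin D1 (Ccnd1) was at 221 FPKM in NICD2 and 95.01 FPKM in wild type, and the growth regulator Myc at 15.5 FPKM in NICD2 and 11.0 FPKM in wild type. Both genes also have many regulators outside the Wnt pathway. Sp5, a transcription factor, averaged 2.81 FPKM in NICD2 and 1.54 FPKM in wild type, and Apcdd1, a membrane inhibitor of Wnt signals, 64.8 FPKM in NICD2 and 43.2 FPKM in wild type. Sp5 lost its call in 7 of 14 alternatives and Apcdd1 in 5. Lef1, Tcf7, Nkd1, Rnf43, Znrf3 and Notum were the members that did not pass.

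Of 13 tested planar polarity and Dishevelled genes, 2 rose and 1 fell, which is 23.1% called beside 8.79% of all genes tested. Daam1, a formin that links Dishevelled to the actin skeleton, averaged 15.9 ± 0.732 FPKM in NICD2 and 8.64 ± 0.622 FPKM in wild type (log2 fold change 0.81 ± 0.074, limma, adjusted p = 0.000369). Celsr2, a polarity cadherin, averaged 30.1 ± 1.97 FPKM in NICD2 and 21.1 ± 1.60 FPKM in wild type (adjusted p = 0.00624). Dact2, a Dishevelled-binding protein, averaged 17.1 ± 0.735 FPKM in NICD2 and 26.96 ± 2.58 FPKM in wild type (log2 fold change -0.63, adjusted p = 0.00222). The median of the list was -0.07, and no call of these 3 genes changed under the alternatives.

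**Figure D4:**
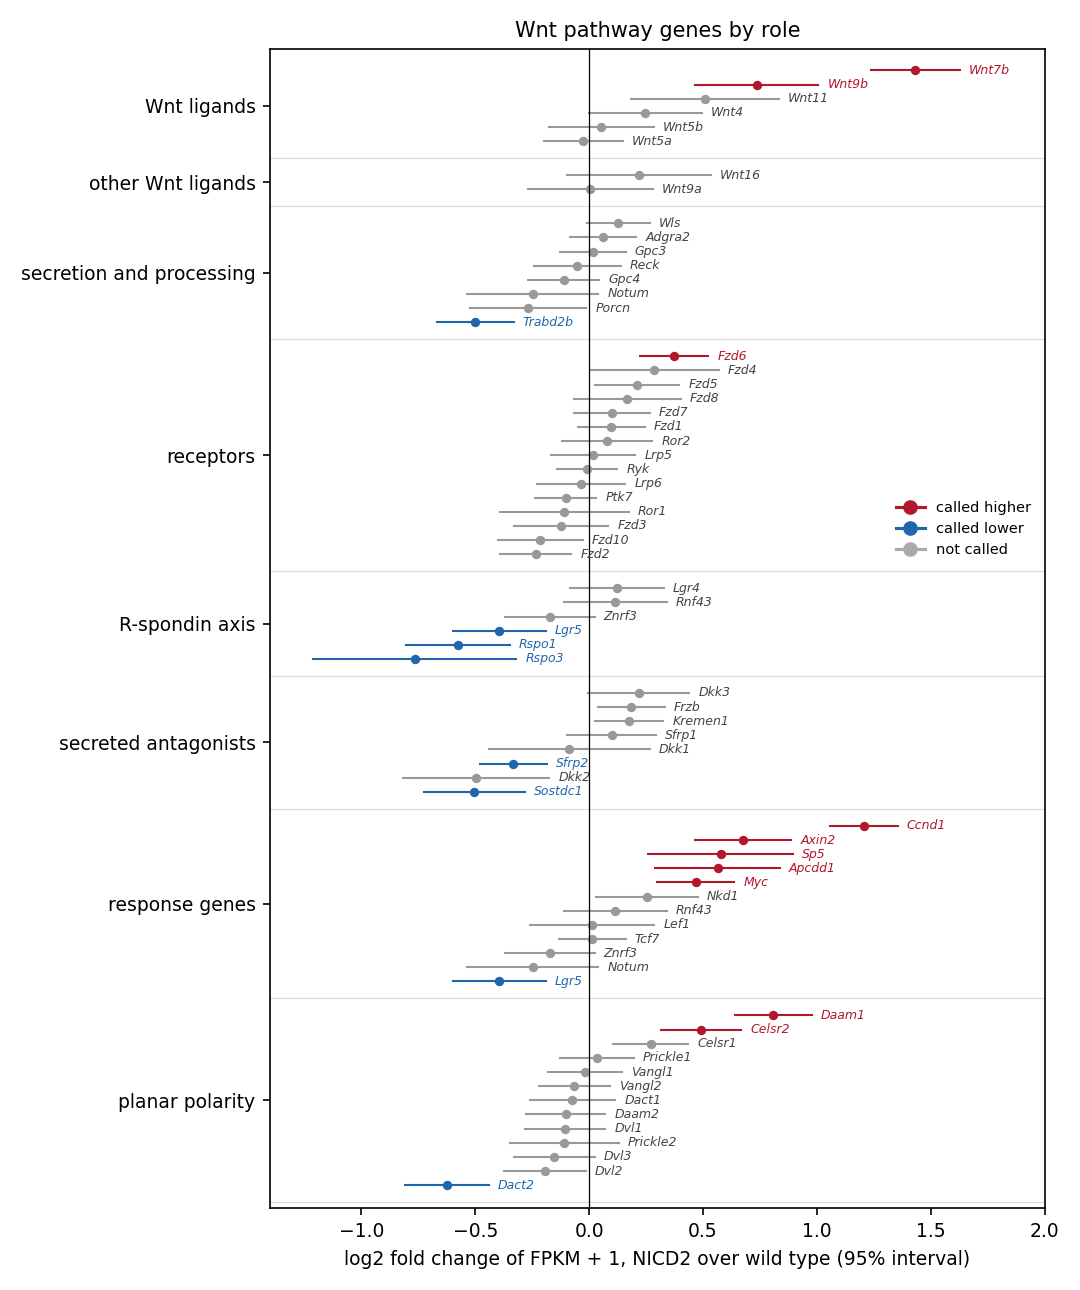
Log2 fold change of FPKM + 1, NICD2 over wild type, with its 95% interval from limma, for every tested Wnt ligand and pathway gene, grouped by role. Red genes were called higher, blue genes lower and grey genes were not called, and Wnt7b has the largest change of those shown.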

How the data were processed

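Group and replicate number were read from each sample's labels. RNA was extracted with Trizol from frozen kidneys and made into Illumina TruSeq libraries, per the labels' protocols. The authors deposited 1 table of FPKM, to 2 decimals, with a column for each sample, per the file headers. Its DEGseq columns, a log2 fold change and a q-value deposited by the authors, were quoted only where named as the authors' (positive means higher in NICD2). Bowtie 0.12.2 and mm8 are named in the submitters' processing notes, while the accessions and positions match GRCm38, which is used for coordinates. Neither the FPKM program nor the use of strand is described there. Another 27 columns, each on 1 pair of samples, were left aside.

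Of 23669 rows, 4010 held no FPKM and were left out, and 19658 symbols remained. The filter on low values asked for 1 FPKM in 3 or more libraries and left 13765 genes. Since the table holds no counts, log2(FPKM + 1) was compared between all 3 NICD2 and all 3 wild type libraries in limma 3.58.1 under R 4.3.3 (trended prior variance, two-sided), adjusted by Benjamini-Hochberg over all genes tested. Depth was taken from the spacing of low FPKM, with 72.4% to 76.4% of them within 0.15 of a whole fragment (30% by chance) after shortening transcripts by 130 bases. Tables and figures were made with Python 3.11.15, pandas 2.3.3, scipy 1.17.1 and matplotlib 3.10.9.

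The 10 members and all lists were chosen with earlier results of these data known. Any member or listed gene could be named, along with the 3 genes most correlated with each called member, markers, checks of the labels and chromosomal neighbours, of which the neighbours were chosen after their values were seen. The fit was repeated with no filter, a pseudocount of 0.1, a stricter filter (mean of at least 2 FPKM), 2 scalings, the replicate number as a block, limma without the trend, each library left out in turn and, chosen after seeing the data, leaving out both libraries low in adrenal transcripts. A marker of the ureteric tip list is not reported here, so no summed level is given for that list.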

Additional observations from a re-analysis of the deposited data

How the results depend on the processing

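Wnt7b and Wnt9b stayed called higher under all 14 alternatives, with log2 fold changes of 1.36 to 1.5 and adjusted p up to 0.000442 for Wnt7b, and of 0.54 to 0.80 and adjusted p up to 0.031 for Wnt9b (limma). Wnt4 was called under none (0.17 to 0.35, adjusted p 0.0671 to 0.47), and Wnt11 only without wild type replicate 1. Leaving out 1 library each gave 0.36 to 0.65 for Wnt11, -0.09 to 0.03 for Wnt5a and -0.02 to 0.13 for Wnt5b, so Wnt5a and Wnt5b changed sign, neither of them called in any fit, and the cause was not tested. It gave 2 to 3 called ligands, 624 to 985 called genes (388 to 589 higher, 236 to 411 lower) against 1210 in all 6 libraries (679 higher, 531 lower), 6 to 8 other pathway genes higher and 4 to 7 lower. The lowest counts came without wild type replicate 2 (624 genes), NICD2 replicate 1 (729) and wild type replicate 3 (780), and 4 pathway genes were called lower without each of these and without NICD2 replicate 2. Without both libraries low in adrenal transcripts 555 genes were called (348 higher, 207 lower), 2 pathway genes were lower, Wnt5a was at 0.01, Wnt11 at 0.43 (adjusted p = 0.143), and Fzd6 (adjusted p = 0.0965), Trabd2b (0.0507) and Gata2 (0.0807) lost their calls. Foxd1 lost its call in 7 alternatives. Fewer libraries leave fewer degrees of freedom in all of these fits.

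Same-numbered samples did not deviate together (r = -0.033, 0.059 and -0.045), while pairs with different numbers ran from -0.253 to 0.246. The labels state no pairing, and with 3 libraries per group these r cannot exclude one. With the replicate block 1055 genes were called (616 higher, 439 lower), Wnt7b and Wnt9b among them. Scaling by median ratios or upper quartiles moved the median of all genes to 0.003 and -0.015. Leaving out 1 library, Wnt10a differed by -0.55 to -0.48 on the log2 scale, and with a pseudocount of 0.1 by -1.43. Counts per gene were not used here, so count models and their normalizations were not run. Depth limits the ligands below 1 FPKM most.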
